A study of Mus musculus with 2 samples.

Results

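The 8 genes described here code for inhibitors of cyclin-dependent kinases (CDKs), the enzymes that drive the cell cycle. They are Cdkn1a, Cdkn1b and Cdkn1c of the Cip/Kip family, Cdkn2a, Cdkn2b, Cdkn2c and Cdkn2d of the INK4 family, and Cdkn3. They were chosen by symbol: each row of the E2F1 peak list that names one of them was taken, which gave 8 peaks out of 5667. Of the 8 genes, 5 had at least 1 listed peak and 3 had none.

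Peaks came from chromatin immunoprecipitation followed by sequencing (ChIP-seq) in primary hepatocytes of C57Bl6J mice, with 1 record of E2F1 ChIP and 1 of input chromatin. Both records came from cells given the adenovirus Ad-E2F1 and collected 36 h later, so the input carries the vector as well, and cells without it were not analysed here. The labels name the antibody as E2F1 c20 from Santa Cruz, and the input had none. The series text speaks of 2 replicates, each joining separate ChIPs, but the peak list is not divided by replicate. No value below therefore has a replicate error, and no difference between peaks was tested. Depth per library is unknown, and 95% exact Poisson intervals on tag counts cover counting error only. A list of peaks measures no expression, so the labelled cell type could not be checked against marker genes.

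INK4 proteins bind CDK4 and CDK6 and keep cyclin D from activating them, whereas Cip/Kip proteins bind complexes of cyclins and CDKs. Both keep CDKs from phosphorylating the retinoblastoma proteins, which then hold E2F factors in check, so the inhibitors act upstream of E2F. E2F1 is an activator of genes for S phase, and Cdkn2a is a textbook case of an inhibitor gene that E2F1 itself can bind. In the adult liver most hepatocytes rest outside the cycle and re-enter it after loss of tissue.

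The question was which inhibitor genes carried E2F1 over input in hepatocytes given Ad-E2F1, and where. Without peaks from cells lacking the vector, the usual binding of E2F1 in hepatocytes cannot be read from this list. For each peak the authors give a fold, which sets the ChIP tags over the background expected from the input, and a summit within a window of 301 bp. A promoter peak is one whose summit lies within 1000 bp of the gene start that the authors used. Cdkn2d, Cdkn2a and Cdkn3 had a promoter peak. These are 3 of 8 genes, or 37.5%, against 13.1% of the 21900 protein-coding genes. Any listed peak was found at 5 of 8 (62.5%), against 24.7% of protein-coding genes. Promoter peaks with a fold of at least 10 were found at 2 of 8, against 2.89%. The strongest promoter peaks of the 3 genes had a median fold of 11.62, beside 6.525 over the 2866 protein-coding genes with one. By family, promoter peaks at the authors' starts were listed at 2 of 4 INK4 genes, at 0 of 3 Cip/Kip genes and at Cdkn3. Cdkn1a, of the Cip/Kip family, had a peak close to a second RefSeq start, described below. The genes were chosen with earlier results of these data known. For this reason, and with so few genes, these counts are a description.

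**Figure D1:**
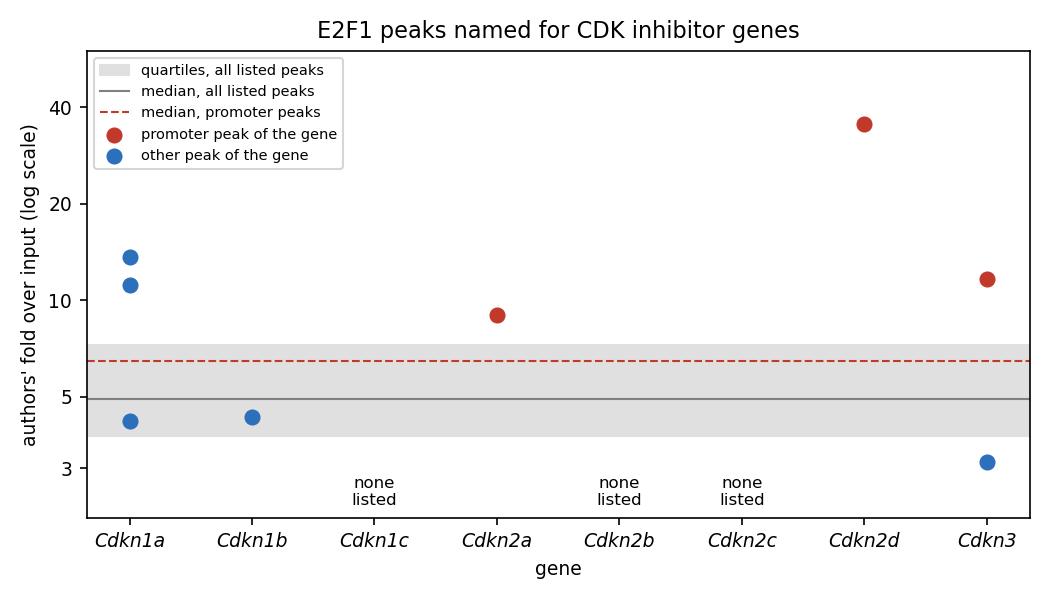
The authors' fold over input (log scale) of each listed E2F1 peak, by gene; red points are promoter peaks, blue points other peaks, the grey band spans the quartiles of all 5667 listed peaks (3.77 to 7.28) and the lines mark the medians of all peaks (4.93) and of promoter peaks (6.48). Cdkn2d stands highest at 35.39, while 3 genes have no listed peak.

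Cdkn2d, the gene of p19Ink4d, an inhibitor of CDK4 and CDK6, had the strongest peak of the 8 genes. Its fold was 35.39, with 400 tags (95% interval 362 to 441) in a called region of 1601 bp and a listed false discovery rate of 0%. The window lay on chromosome 9 from 21095861 to 21096161 (mm9), and its summit was 357 bp upstream of the authors' start. This peak was number 13 of 5667 by fold and number 12 of the 2612 promoter peaks. It stood just behind the peak shared by Hist1h2ah and Hist1h2bk (35.43) and ahead of Gm4694 (35.26) and Top2a (34.97). Its fold was 5.46 times the median of promoter peaks and 2.60 times that of the next inhibitor peak.

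The Cdkn2d region was also dense in tags. It held 249.8 tags per kb, against a median of 81.1 per kb for promoter peaks, and its pileup height of 276 was number 51 in the list. By number of tags alone it ranked 183. The height equalled 69.0% of the region's tags, against a median of 41.5% for promoter peaks. No other gene was named for this peak. The nearest listed windows were 42068 bp away at S1pr5 (fold 4.23) and 28881 bp away, upstream of Ap1m2 (fold 5.43). No listed window was closer than these.

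The letters next to the Cdkn2d start are shown because this gene carried the highest fold. The sequence is that of RefSeq for the 250 bases upstream of its start, on the gene's strand, in build GRCm38.p6 (chr9:21291210-21291459, minus strand). Its coordinates are not those of mm9 and no coordinates were converted. Whether this RefSeq start is the one the authors used was not determined. Capitals mark matches to the 6-letter core of the E2F consensus, TCCCGC or TCGCGC or TGCCGC or TGGCGC, on either strand.
Cdkn2d: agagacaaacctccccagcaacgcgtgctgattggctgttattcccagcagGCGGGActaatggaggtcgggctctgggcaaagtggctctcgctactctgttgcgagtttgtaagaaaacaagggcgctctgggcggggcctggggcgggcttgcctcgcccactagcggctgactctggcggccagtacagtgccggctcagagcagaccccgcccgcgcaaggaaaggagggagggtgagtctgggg
It held 1 core match, on the opposite strand and beginning 199 bases before the start. Of 21263 windows of the same length at protein-coding genes, 38.6% held a core on either strand and 16.7% held more than 1. If both starts are the same, the summit, 357 bp upstream, lay beyond these 250 bases. A match of letters does not show a bound site.

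Cdkn2a codes for p16Ink4a, an inhibitor of CDK4 and CDK6, and from another first exon and reading frame for p19Arf, which binds Mdm2 and so stabilises p53. Its 1 listed peak had a fold of 8.98 with 139 tags (95% interval 117 to 164) and a false discovery rate of 0.1%. The window lay on chromosome 4 from 88940748 to 88941048 (mm9), with the summit 340 bp upstream of the authors' start. The peak was number 901 by fold in the list and number 698 among promoter peaks, where the median was 6.48. It was thus above the middle of promoter peaks but far below Cdkn2d.

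The p19Arf and p16Ink4a starts lie 12427 bp apart in RefSeq (GRCm38.p6), with that of p19Arf on the outer side. The spacing to the next gene with a peak, Mtap, bears on which start the authors used. In mm9 the authors' Cdkn2a start lay 157297 to 157597 bp from that of Mtap, the range being that of the Mtap window that holds its start. In RefSeq the spacing was 157249 bp for the outer start and 144822 bp for the inner one. The outer start missed the range by 48 bp and the inner one by 12475 bp. By this spacing the listed peak lay upstream of the p19Arf start, with its called region reaching from 1018 bp upstream to 236 bp inside the gene. No listed peak was named for the p16Ink4a start.

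Both RefSeq windows of Cdkn2a are shown because they differ in E2F letters (GRCm38.p6, minus strand; chr4:89294620-89294869 for the outer and chr4:89282193-89282442 for the inner start).
Cdkn2a outer: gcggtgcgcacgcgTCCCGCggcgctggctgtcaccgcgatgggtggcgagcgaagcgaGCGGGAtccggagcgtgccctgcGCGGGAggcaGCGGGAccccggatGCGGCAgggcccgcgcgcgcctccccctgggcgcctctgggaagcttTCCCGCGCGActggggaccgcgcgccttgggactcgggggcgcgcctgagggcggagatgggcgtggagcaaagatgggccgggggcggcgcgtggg
Cdkn2a inner: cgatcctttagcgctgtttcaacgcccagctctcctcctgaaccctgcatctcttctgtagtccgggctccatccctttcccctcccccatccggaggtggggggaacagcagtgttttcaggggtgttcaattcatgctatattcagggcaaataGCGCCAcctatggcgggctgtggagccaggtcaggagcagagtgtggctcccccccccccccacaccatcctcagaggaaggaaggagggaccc
The outer window held 7 core matches, 2 of them overlapping, and only 0.0188% of protein-coding windows held more. Of these, 1 was part of the whole 8-letter consensus (TTTCCCGC or TTTCGCGC or TTTGCCGC or TTTGGCGC), found in 2.35% of protein-coding windows. The inner window held 1 core match and 7 CpG dinucleotides, against 40 in the outer one. Only 1.36% of protein-coding windows held more CpG dinucleotides than the outer window. It was 78.4% G or C, against a median of 55.6% in protein-coding windows. Every core searched holds a CpG, and the part of base composition in these counts was not tested. Among the windows of inhibitor genes, the outer Cdkn2a window held the most matches, and the Cdkn2d window held 1. The Cdkn2a and Cdkn2d summits lay 340 and 357 bp upstream of the authors' starts. If RefSeq uses the same starts, both summits were outside the 250 bases searched. These counts are then not of letters under the summits and are not set against fold.

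**Figure D2:**
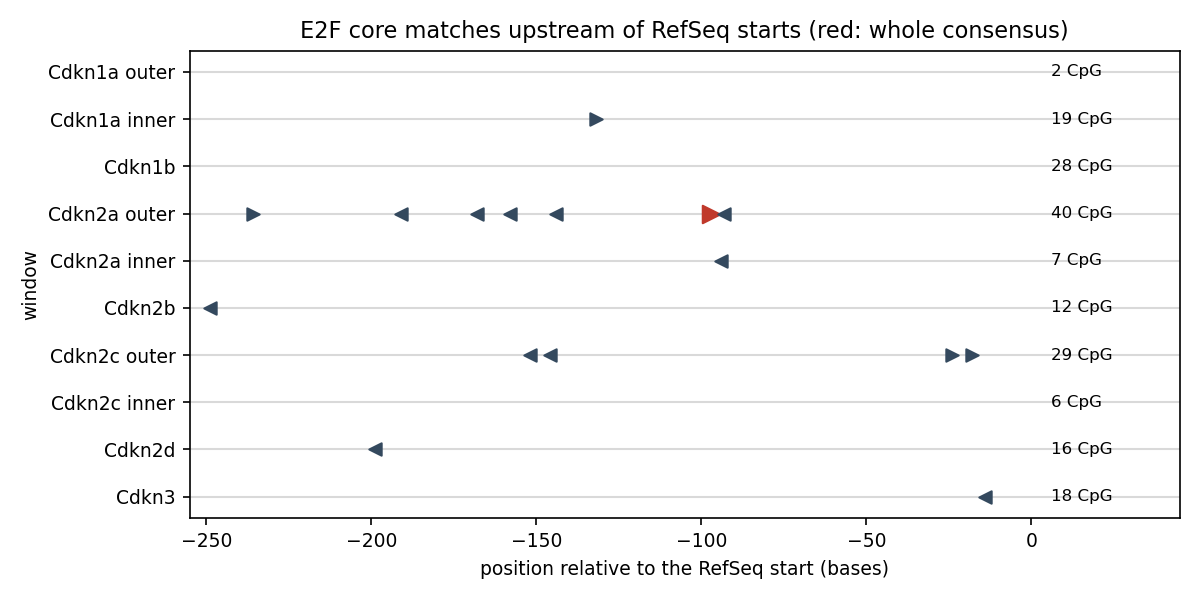
Positions of E2F core matches in the 250 bases upstream of RefSeq starts (x axis, bases relative to the start), 1 row per window; each triangle sits at the first base of a match and points right for the gene's strand and left for the opposite strand, the red one marks the whole consensus, and the number of CpG dinucleotides is given at the right. The outer Cdkn2a window holds 7 matches, the outer Cdkn2c window 4 and the other windows 1 or 0.

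Cdkn3 codes for a dual-specificity phosphatase, KAP, that removes the activating phosphate from CDKs. It had a promoter peak with a fold of 11.62 and 152 tags (95% interval 129 to 178) at a false discovery rate of 0.12%. The window, on chromosome 14 from 47379951 to 47380251 (mm9), held the gene start itself. Measured from the start that the authors' second distance gives, the summit was 115 bp upstream. By fold this peak was number 508 of all peaks and number 399 of promoter peaks.

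The second Cdkn3 peak lay inside the gene, with its summit 5250 bp from the start (window 47385316 to 47385616). Its fold was 3.14, with a false discovery rate of 5.93%, and 91.8% of listed peaks had a higher fold. It held 168 tags (95% interval 144 to 195), so the tag counts of both Cdkn3 peaks had overlapping intervals. These tags were spread over 2703 bp, at 62.2 per kb, against 120 per kb at the promoter. The fold of the promoter peak was 3.70 times that of the inner one. The inner peak was also named for Cnih, past whose end it lay by 9640 bp.

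The RefSeq window upstream of the Cdkn3 start (GRCm38.p6, chr14:46760291-46760540, plus strand) is shown as that of a gene whose peak sits on the start.
Cdkn3: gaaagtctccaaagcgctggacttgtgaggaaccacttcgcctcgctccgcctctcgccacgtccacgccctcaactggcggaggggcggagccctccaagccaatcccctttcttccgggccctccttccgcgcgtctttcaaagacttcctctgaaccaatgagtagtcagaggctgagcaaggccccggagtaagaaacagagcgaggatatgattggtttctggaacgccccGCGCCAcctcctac
It held 1 core match, on the opposite strand, 14 bases before the start, and 18 CpG dinucleotides.

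Cdkn1a, the gene of p21, which p53 activates after DNA damage, had 3 listed peaks and none at the start the authors used. Protein-coding genes with 3 or more listed peaks made up 0.886%, and Cdkn1a was the 1 such gene of the 8. The first peak had a fold of 13.63 with 237 tags (95% interval 208 to 269), on chromosome 17 from 29230379 to 29230679 (mm9). The second had a fold of 11.17 with 253 tags (95% interval 223 to 286), from 29232189 to 29232489. Their false discovery rates were 0.21% and 0.24%. The summits lay 2605 and 4415 bp inside the gene, 1810 bp from each other, and the called regions were separated by 252 bp. Measured from the authors' start alone, both count as peaks outside promoters, where they were number 67 and number 121 by fold of 3055, with a median of 4.07. The first lay close to a second RefSeq start of the gene.

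The third Cdkn1a peak was weaker and lay at the other end of the gene. Its fold was 4.22 with 140 tags (95% interval 118 to 165) and a false discovery rate of 1.09%. The window, from 29237708 to 29238008, began 40 bp past the gene end. The called region, from 29235998 to 29238476, began inside the gene. It held 56.5 tags per kb, against 147 and 116 in the first and second region. No other gene was named for any of these 3 peaks, and the nearest other listed windows were 42240 bp away near Srsf3 and 162939 bp away at Ppil1.

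**Figure D3:**
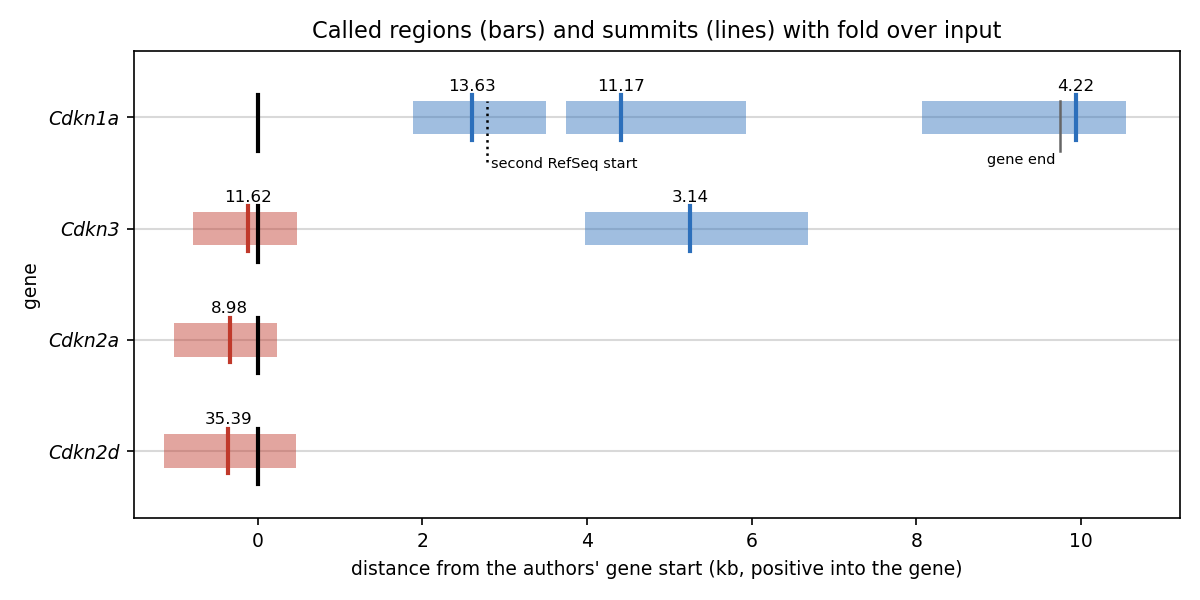
Called regions (bars) and summits (coloured lines, with the authors' fold above) of the 4 genes for which the authors' start could be placed, by distance in kb from that start (black line), positive into the gene; red is a promoter peak and blue another peak. In Cdkn1a the first summit lies 185 bp before the second RefSeq start (dotted), drawn at its spacing within GRCm38.p6, and the gene end is marked.

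RefSeq gives Cdkn1a a second start inside the gene. The authors' gene spanned 9745 bp from its start to its end, and the RefSeq record is 9744 bp long, so both use the same outer start to within 1 bp in length. The second RefSeq start lies 2790 bp downstream in GRCm38.p6. At that spacing the first summit was 185 bp upstream of the second start and its window ended 35 bp before it. The second summit was 1625 bp downstream of it. If peaks at internal RefSeq starts are counted, 4 of the 8 inhibitor genes had a promoter peak, against 13.4% of protein-coding genes. The gene added was Cdkn1a, so the Cip/Kip family was then no longer without a promoter peak. The spacing was taken within GRCm38.p6, and whether it is the same in mm9 was not checked beyond the gene length. Internal starts were available only for the 17492 protein-coding genes with RefSeq windows, while the 13.4% is a share of all 21900. The count also took the outer RefSeq start of each gene as the authors' start, which was examined only for Cdkn1a and Cdkn2a.

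Both Cdkn1a windows are shown because, at the spacing above, the listed peak was at the inner and not at the outer one (GRCm38.p6, plus strand; chr17:29090729-29090978 and chr17:29093519-29093768).
Cdkn1a outer: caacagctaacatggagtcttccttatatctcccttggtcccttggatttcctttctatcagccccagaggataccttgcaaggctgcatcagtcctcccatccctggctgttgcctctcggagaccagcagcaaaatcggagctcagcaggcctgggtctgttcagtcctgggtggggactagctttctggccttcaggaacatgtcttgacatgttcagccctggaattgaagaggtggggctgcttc
Cdkn1a inner: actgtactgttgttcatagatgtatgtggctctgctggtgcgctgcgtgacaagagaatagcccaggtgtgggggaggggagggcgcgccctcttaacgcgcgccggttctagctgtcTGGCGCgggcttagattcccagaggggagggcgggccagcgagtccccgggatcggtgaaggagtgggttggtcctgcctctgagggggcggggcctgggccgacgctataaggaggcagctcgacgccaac
The outer window held 0 core matches and 2 CpG dinucleotides. The inner window held 1 core match, beginning 132 bases before the start, and 19 CpG dinucleotides, against a median of 10 in protein-coding windows. The whole consensus was in neither window.

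Cdkn1b, the gene of p27, which holds resting cells out of the cycle, had 1 weak peak past its end. Its fold was 4.33 with 83 tags (95% interval 66.1 to 103) and a false discovery rate of 7.26%, on chromosome 6 from 134882175 to 134882475 (mm9). The window was 6643 bp from the gene end, and 62.0% of listed peaks had a higher fold. This was the least certain of the 8 peaks by its p-value, number 5130 in that order. The next listed peak on the lower side, 34111 bp away, was at the promoter of the neighbouring gene Gpr19, with a fold of 8.15 and 398 tags. The 250 bases upstream of the Cdkn1b start held 28 CpG dinucleotides and 0 core matches.

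Cdkn1c, Cdkn2b and Cdkn2c had no listed peak. Cdkn1c codes for p57, an inhibitor expressed from the maternal allele. In RefSeq gene order its neighbour Kcnq1 had 2 listed peaks, the higher with a fold of 4.81 and lying 46629 bp from the start, and Slc22a18 and Phlda2 on the other side had none. Cdkn2b, the gene of p15, lies beside Cdkn2a and away from Mtap. From the Cdkn2a window to the next listed window on that side, inside 5830433M19Rik, there were 5231188 bp without a listed peak. Any part of this stretch more than 20 kb from a gene could not appear in the list. The RefSeq window of Cdkn2b held 1 core match. On the other side of Cdkn2a the Mtap promoter had a fold of 12.31 with 254 tags, so the peaks next to each other in this region were at Mtap and at p19Arf.

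Cdkn2c, the gene of p18, lies beside Faf1, whose promoter had a peak with a fold of 5.37 and 254 tags. The window at the outer Cdkn2c start is shown because it held several matches and no listed peak (GRCm38.p6, chr4:109666757-109667006, minus strand).
Cdkn2c outer: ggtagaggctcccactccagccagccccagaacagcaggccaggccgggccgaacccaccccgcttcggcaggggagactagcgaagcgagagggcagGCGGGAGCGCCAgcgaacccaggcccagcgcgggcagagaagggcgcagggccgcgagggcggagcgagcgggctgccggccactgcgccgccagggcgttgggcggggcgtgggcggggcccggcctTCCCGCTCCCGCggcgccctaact
It held 4 core matches, with the last ones beginning 24 and 18 bases before the start, and 29 CpG dinucleotides. Only 0.757% of protein-coding windows held more matches, and 7.66% held more CpG dinucleotides. The outer Cdkn2c window was 77.2% G or C, against a median of 55.6% in protein-coding windows, and the part of this was not tested. The file is a selection in which 13241 serial numbers of the peak caller are missing, and for these 3 genes it leaves unanswered whether E2F1 was present.

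**Figure D4:**
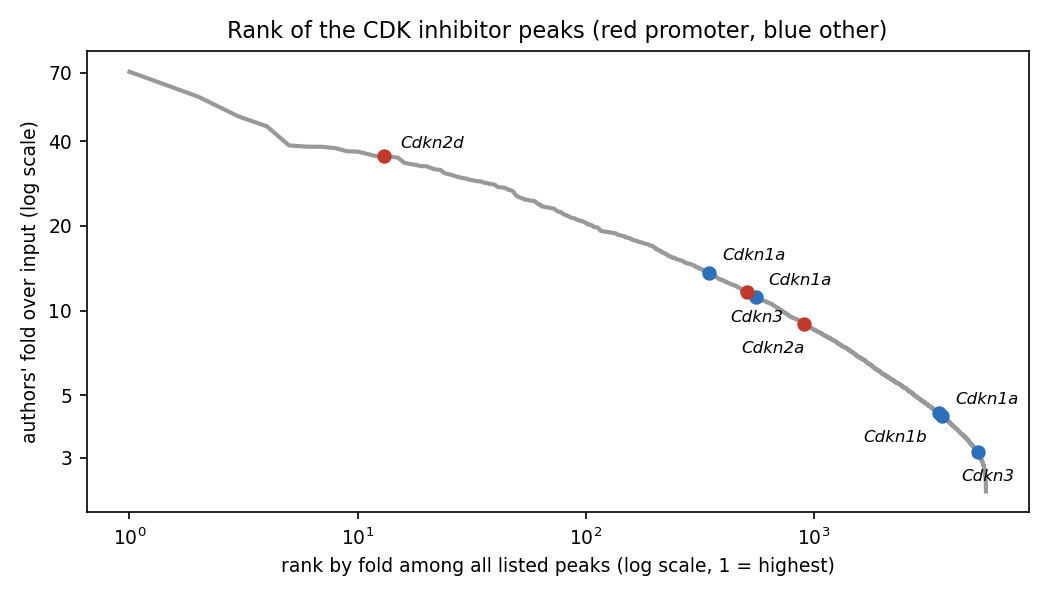
The authors' fold over input (log scale) of all 5667 listed peaks against their rank (log scale), as a grey line, with the 8 peaks of inhibitor genes as points (red promoter, blue other). Cdkn2d is at rank 13, 4 peaks lie between ranks 348 and 901, and the last 3 lie at rank 3513 or below.

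The 8 peaks thus fell into a single very strong one, 4 of fold 8.98 to 13.63 and 3 of fold 3.14 to 4.33. The 5 with the higher folds were the 3 promoter peaks and the first and second peak of Cdkn1a, and had false discovery rates of 0.24% or less. The other 3 were the inner peak of Cdkn3 and the peaks with summits past the ends of Cdkn1a and Cdkn1b. These 3 had rates of 1.09% to 7.26%. A gap from 4.33 to 8.98 separated the 5 peaks from these 3, while the quartiles of all listed peaks were 3.77 and 7.28.

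Genes that act with the inhibitors were taken from 5 lists. Over all protein-coding genes, 13.1% had a promoter peak and 24.7% any listed peak. For the inhibitors these shares were 37.5% and 62.5%. Among 13 cyclins and CDKs that the inhibitors act on, 4 had a promoter peak (30.8%) and 8 any listed peak (61.5%). The highest promoter folds were 45.17 at Cdk1, the mitotic kinase, 17.26 at Ccne1, the gene of cyclin E1, and 12.61 at Cdk2, the partner of cyclin E, whose promoter is shared with Pmel. Ccne1 also had a peak 12451 bp past its end, with a fold of 19.43. Cdk4, the main target of INK4 proteins, had no listed peak, and Cdk6 had 2 inside the gene with folds of at most 2.99. Cyclin D genes had none at a promoter: the highest fold was 7.64 for Ccnd1, 3489 bp upstream of its start.

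Of 13 pocket protein, E2F and DP genes, 5 had a promoter peak (38.5%) and 6 any listed peak (46.2%). The highest promoter folds were 27.33 at E2f3, 11.72 at Rbl1, the gene of p107, and 7.72 at E2f7, a repressor. Parts of ubiquitin ligases that turn over Cip/Kip proteins had any listed peak at 4 of 11 genes (36.4%) and a promoter peak at 2 (18.2%). These were Skp2, the subunit that recognises p27, with a fold of 18.94 at a promoter shared with Lmbrd2, and Rbx1, a ring-finger subunit, with 4.86. Cks1b, the cofactor of Skp2 for p27, had no listed peak. Among the other ligase parts, Rnf123 had no listed peak and Cul1 had a peak inside the gene with a fold of 3.84. Within this small set Skp2 was the 1 gene with a promoter fold of at least 10.

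Of 5 genes of the Arf and p53 axis, Huwe1, a ubiquitin ligase that Arf binds, was the 1 with a promoter peak (20%), at a fold of 8.67. Any listed peak was found at 2 of the 5 (40%), and Trp53, Mdm2 and Npm1 had none. Of 25 chromatin and transcription factors known to act on inhibitor genes, 7 had a promoter peak (28%) and 15 any listed peak (60%). The highest promoter folds were 11.13 at Myc, which represses Cdkn1a and Cdkn2b, 9.60 at Ezh2, the methyltransferase of Polycomb, and 7.84 at Foxo1, an activator of Cdkn1b. The median of the strongest promoter folds was highest, at 14.9, in the cyclin and CDK list, followed by 11.9 for the 2 ligase genes and 11.62 for the 3 inhibitors. It was 7.72 in the pocket protein, E2F and DP list and 7.47 in the list of chromatin and transcription factors, and the Arf and p53 list had only the 8.67 of Huwe1. These lists are short, differ in size and were chosen with earlier results of these data known, and no test between them was run.

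**Figure D5:**
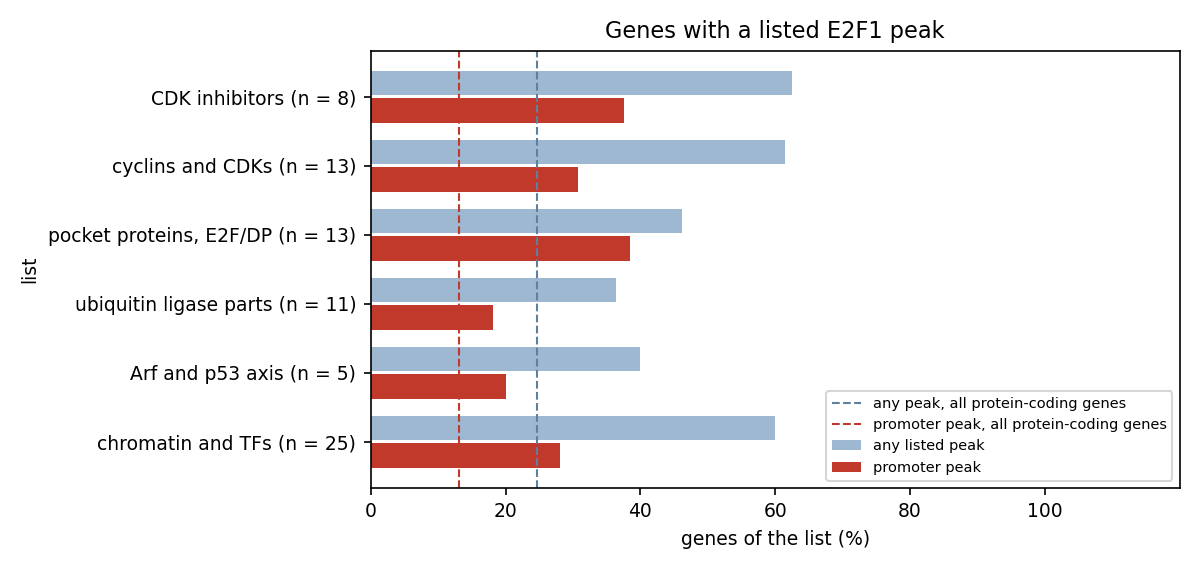
Share of genes (x axis, %) in each list with any listed E2F1 peak (pale bars) and with a promoter peak (red bars); dashed lines mark the shares over all protein-coding genes, 24.7% and 13.1%, and n is the number of genes in a list. The red bars run from 18.2% to 38.5%, with the CDK inhibitors at 37.5%.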

How the data were processed

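One peak list joins the E2F1 ChIP and input records of hepatocytes. Reads were aligned with Bowtie2 (2.1.0) to mm9 (NCBIM37), per the submitters' processing notes. The peak caller was MACS, per the file headers, and details of its settings and of any pooling of replicates were not given in the sources used here. Deposited columns that were used are the count of tags per region, the height of the pileup signal, the fold (a ratio of ChIP to background from the input), a score (10 times the negative log10 of a p-value) and a false discovery rate in percent. They are the authors' values and were used to describe and rank peaks within this list. Regions more than 20 kb from a gene are absent: the largest listed distance upstream or downstream is 19992 bp.

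Members, the 5 lists of related genes and the rules for naming genes were chosen with earlier results of these data known. All 8 members are named with every peak, and each list by its 3 highest promoter folds. Other genes named without a promoter peak were added after their values were seen. Distances run from the 301 bp window to the gene start, or to the gene end for downstream peaks, so a promoter summit within 1000 bp means a window edge within 850 bp. Symbols (5493 of 5587) were matched to RefSeq genes of GRCm38.p6, used for names, biotype and gene order. Sequences came from RefSeq windows of that build, found for 7 of 8 members, and were searched with Python 3.11.15. The motif search was tested on simulated data. Depth per library is unknown, so intervals cover counting error only, and reads placed at similar sequences could not be checked. Alternatives changed the promoter distance and class, the gene assignment and the peak threshold.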

Additional observations from a re-analysis of the deposited data

How the results depend on the processing

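The count of inhibitor genes with a promoter peak was 3 or 4 under all 8 alternatives. It was 4 with promoters of 5000 bp and with internal RefSeq starts, a choice made after seeing the data, and Cdkn1a was the gene added both times. Cdkn2a, Cdkn2d and Cdkn3 were counted under each. The count with any listed peak was 4 or 5 under 4 alternatives. Cdkn1b was lost with a false discovery rate of at most 1%, among the 1419 peaks of highest fold and among the 2835 of lowest p. The median fold of promoter peaks, 11.62, was 12.6 with promoters of 5000 bp, where Cdkn1a entered with 13.63. It equalled the main value under the other 3 alternatives. The same peaks of Cdkn2a, Cdkn2d and Cdkn3 passed each of these, so their median could not move. The 6.525 over protein-coding genes was not computed again under any alternative. No paired analysis was possible because the list has 1 ChIP record and 1 input record and no result comes from a test. With no replicate and no library totals, differences between peaks could be judged only against counting error.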

Other observations

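Besides Cdkn1a, the protein-coding genes with at least 2 peaks of fold 10 or more inside the gene and away from the authors' start were Fgfr2 with 2 and Tex14 with 6, a search made after the Cdkn1a values were seen. Counting internal RefSeq starts added 69 genes to those with a promoter peak, out of 2761 protein-coding genes with more than 1 RefSeq start. Such starts were available only for genes with RefSeq windows.

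RefSeq windows were available for 17492 of the 21900 protein-coding genes, 2355 of them with a promoter peak. The whole E2F consensus was in 6.84% of 2893 windows at genes with a promoter peak and in 1.64% of 18370 windows at other genes. The core was in 63.4% and 34.7% of them. The median number of CpG dinucleotides also differed, 17 against 8, and its part in the difference in E2F letters was not tested. Windows of 1 gene share sequence, and no test was run.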
